A study of Homo sapiens
Mus musculus with 16 samples.

Results

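The 38 genes described here are mouse genes of fat cells and of fat and fatty acid synthesis, taken by symbol from the mouse expression table of ScaBER tumours grown in mice. All 38 are among the 23337 genes of that table. Fat cells store triglyceride in a droplet coated by perilipins and CIDE proteins, take up fatty acids released by lipoprotein lipase, release them again through lipases, and secrete hormones such as adiponectin and leptin. The transcription factors PPARG and C/EBP alpha drive this programme, and insulin acting through PI3K promotes glucose uptake and fatty acid synthesis in it. ScaBER is an established line from a human bladder squamous carcinoma, and reads mapped to the mouse genome were taken for those of the host. Reads were mapped to each genome separately, and how many mouse reads come from human transcripts was not tested.

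Tumours were carried by Hsd:Athymic Nude-Foxn1nu mice, which lack a functional thymus and so most T cells. All 4 groups were treated for 14 days, and each had 4 libraries. The vehicle group was given 0.5% methylcellulose with 0.1% Tween80, the nintedanib group nintedanib at 40 mg/kg, the alpelisib group alpelisib at 25 mg/kg, and the combination group both drugs at these doses. Nintedanib inhibits the receptor kinases for FGF, PDGF and VEGF, while alpelisib inhibits the alpha isoform of PI3K. The ages and sex of the mice, the site of the tumours, and whether the drug groups also had the vehicle solution are not stated in the labels. Each library number is a replicate number from the titles. The labels do not tie libraries to separate mice, so p-values measure only the spread between these samples, which may be technical.

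Values are the authors' normalized expression values, which are whole 3′ end reads divided by 1 factor per library. Libraries held 3606008 to 6850491 mouse reads. Of the 38 genes, 36 passed a filter on low values, which kept genes that reached 1 in 4 or more libraries. The other two, Agpat2 and Ucp1, are described by their reads. In bulk tissue, fewer fat cells and less RNA per fat cell cannot be told apart. Values within each group are given below in the order of replicates 1 to 4, as normalized values.

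Reads of the 38 genes were spread very unevenly over the libraries, and the unevenness lay inside the groups. Together the 38 genes took 0.858%, 0.0941%, 0.0547% and 0.0566% of mouse reads in the vehicle libraries. The nintedanib libraries gave 0.0557%, 0.0692%, 0.0535% and 0.129%. The share was 0.126%, 0.415%, 0.0662% and 0.681% with alpelisib. With both drugs it was 0.136%, 0.218%, 0.0728% and 0.0623%. Exact (Clopper-Pearson) 95% intervals of these shares reached at most 0.00815 percentage points to either side, which covers counting error only, since reads of these libraries are not independent molecules. The highest share was 16.03 times the lowest, and vehicle 1, the highest, lay in the same group as vehicle 3 and vehicle 4, which were among the lowest. All 4 groups overlapped. In a low library the share was not mainly made of adipokine or droplet protein reads. Of 2042 member reads in vehicle 4, 417 were of Cebpa, 269 of Fasn, 195 of Aoc3 and 192 of Acly. Adipoq had 0 there, Cfd 2, and Plin1 and Cidec 1 each. The range of the summed share is therefore not that of fat-cell transcripts alone.

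**Figure D1:**
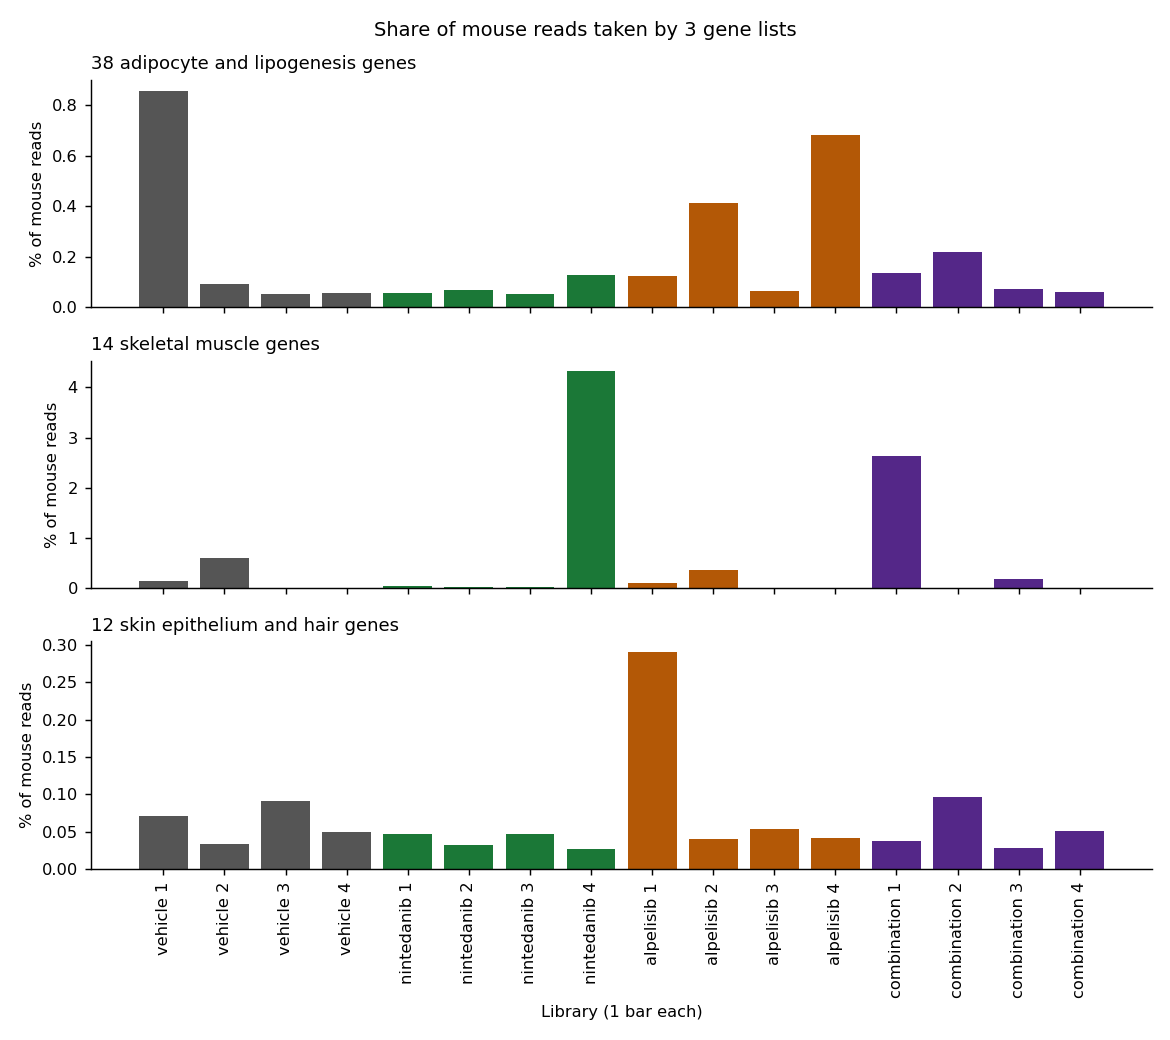
Share of recovered mouse reads (vertical axes, percent) taken by the 38 adipocyte and lipogenesis genes, by 14 skeletal muscle genes and by 12 genes of skin epithelium and hair in each of the 16 libraries (1 bar each, coloured by group). The adipocyte share peaks in vehicle 1 (0.858%), alpelisib 4 (0.681%) and alpelisib 2 (0.415%), the muscle share in nintedanib 4 (4.31%) and combination 1 (2.62%), and the skin and hair share in alpelisib 1 (0.290%).

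Markers of other host tissues varied between libraries as well, some in the libraries of highest Adipoq and some in others. The 14 skeletal muscle genes, all of them with reads, summed to 132 to 27285 with vehicle, 1235 to 204005 with nintedanib, 114 to 17156 with alpelisib and 86.2 to 119296 with both drugs. The highest were nintedanib 4 and combination 1, and the muscle marker of highest mean was skeletal actin, Acta1. The 12 genes of skin epithelium and hair, all with reads, led by Krt14, summed to 13173 in alpelisib 1 and to no more than 4421 in any other library. The 5 mammary gland genes, all of low level, summed to 101.9 in alpelisib 2, 30.5 in alpelisib 4 and 23.97 in vehicle 1. These were the 3 libraries with the highest adipocyte share, and no other summed above 13.9. A different gene led in each, Csn1s1 in alpelisib 2 (74.9), Csn3 in alpelisib 4 (17.2) and Lalba in vehicle 1 (12.9). Lalba was as high in alpelisib 3 (13.0), which had little Adipoq, and stood at 10.9 in vehicle 4, which had no Adipoq read. Macrophage and preadipocyte markers had their highest sums in combination 2, at 38688 and 7124. The part of these tissues in the adipocyte values was not tested.

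The secreted products of fat cells showed the pattern most plainly. Adiponectin, Adipoq, which sensitises tissues to insulin, stood at 1865, 67.2, 8.45 and 0 with vehicle, 9.33, 40.6, 12.9 and 50.9 with nintedanib, 92.6, 778, 8.67 and 1441 with alpelisib and 127, 379, 10.3 and 1.01 with both drugs. The 4 highest libraries were vehicle 1, alpelisib 4, alpelisib 2 and combination 2, and no nintedanib library passed 50.9. Complement factor D, Cfd, also called adipsin, stood at 14079.7, 169, 31.4 and 2.73 with vehicle, 12.1, 156, 30.5 and 132 with nintedanib, 553, 4463, 48.5 and 5259 with alpelisib and 578, 2614, 42.4 and 17.2 with both drugs. Its values in vehicle 1 and vehicle 4 were the highest and the lowest of all 16 libraries. Resistin, Retn, gave 952, 8.71, 3.62 and 1.36 with vehicle, 1.87, 15.7, 3.52 and 13.3 with nintedanib, 48.2, 334, 1.73 and 414 with alpelisib and 24.4, 129, 14.9 and 6.08 with both drugs. Leptin, Lep, the satiety hormone of fat, gave 119.9, 0, 1.21 and 1.36 with vehicle, 0, 5.54, 2.34 and 2.21 with nintedanib, 11.3, 21.8, 0.867 and 220.1 with alpelisib and 5.92, 34.0, 3.44 and 0 with both drugs, highest in alpelisib 4 and next in vehicle 1. For each of these 4 genes the same 4 libraries were the highest, in varying order.

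The lipid droplet proteins were high in the same libraries. Perilipin 1, Plin1, which shields the stored fat from lipases, stood at 187, 3.73, 2.41 and 1.36 with vehicle, 0, 0, 7.03 and 5.53 with nintedanib, 4.72, 58.2, 1.73 and 116 with alpelisib and 7.39, 47.0, 0 and 0 with both drugs. Cidec, which lets small droplets merge into 1 large one, stood at 1040.1, 41.1, 10.9 and 1.36 with vehicle, 0, 15.7, 3.52 and 12.2 with nintedanib, 66.1, 456, 0 and 973 with alpelisib and 43.6, 251, 1.15 and 5.07 with both drugs, again highest in the 4 libraries of highest Adipoq. Perilipin 4, Plin4, gave 653, 39.8, 1.21 and 1.36 with vehicle, 4.66, 9.23, 2.34 and 124 with nintedanib, 62.3, 314, 6.07 and 947 with alpelisib and 85.8, 116, 6.88 and 8.11 with both drugs. Its value in nintedanib 4, the library richest in muscle transcripts, was above that in combination 2. Cidea, the droplet protein of brown fat and of sebaceous glands, stood apart from them. It had 47 reads in all, 27 of them in alpelisib 1, and its values were 2.77, 4.98, 1.21 and 0 with vehicle, 0, 0, 0 and 3.32 with nintedanib, 25.5, 5.20, 0 and 1.57 with alpelisib and 0.739, 0, 1.15 and 0 with both drugs. Alpelisib 1 was the library richest in skin and hair transcripts.

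Both lipases of fat breakdown showed the same pattern over a base level that every library had. Pnpla2, the lipase that begins fat breakdown, gave 1058, 113, 128 and 91.4 with vehicle, 99.8, 142, 115 and 259.9 with nintedanib, 193, 463, 211 and 572 with alpelisib and 194, 445, 151 and 94.3 with both drugs. Hormone-sensitive lipase, Lipe, gave 1035, 162, 65.2 and 90.1 with vehicle, 77.4, 79.3, 101 and 149 with nintedanib, 157, 532, 82.3 and 1140.5 with alpelisib and 112, 309, 112 and 53.7 with both drugs. Both had reads in all 16 libraries and the same 4 highest libraries as Adipoq. The beta-3 adrenergic receptor, Adrb3, which starts lipolysis in fat cells, had no base level. Vehicle 1 had 200.1, alpelisib 2 had 85.3, alpelisib 4 had 77.5 and combination 2 had 23.5, while the other 12 libraries had no more than 9.44.

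Lipoprotein lipase, Lpl, which frees fatty acids from circulating lipoproteins, stood at 1536, 296, 202 and 184 with vehicle, 276, 253, 220.3 and 365 with nintedanib, 467, 851, 447 and 1744 with alpelisib and 399, 621, 368 and 358 with both drugs. The lowest alpelisib value, 447 in alpelisib 3, lay above 3 of the 4 vehicle values. The fatty acid binding protein Fabp4, which is also made by capillary endothelium and macrophages, gave 1966, 382, 128 and 159.7 with vehicle, 107, 163, 186 and 253 with nintedanib, 295, 1577, 92.7 and 2974 with alpelisib and 536, 470.2, 470.2 and 133 with both drugs. The fatty acid receptor Cd36 gave 127, 136, 9.66 and 9.55 with vehicle, 13.1, 31.4, 35.2 and 121 with nintedanib, 63.3, 161, 10.4 and 409.7 with alpelisib and 119, 37.9, 74.5 and 49.7 with both drugs. It ranked alpelisib 4 highest, as Fabp4 did, but placed combination 2 low. The 10 endothelial marker genes, led by Egfl7, summed to 3339 to 4283 with vehicle, 1763 to 3876 with nintedanib, 3255 to 4275 with alpelisib and 1859 to 2930 with both drugs. The 9 macrophage markers in the table, led by C1qa, summed to 12562 to 38688 over all libraries. Their part in Fabp4 and Cd36 was not tested.

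Several members that muscle also expresses were high both in libraries rich in Adipoq and in those rich in muscle transcripts. The insulin-responsive glucose transporter Slc2a4, known as GLUT4, stood at 162, 54.7, 10.9 and 1.36 with vehicle, 5.60, 4.61, 1.17 and 351 with nintedanib, 12.3, 129, 6.07 and 87.7 with alpelisib and 257, 22.2, 12.6 and 6.08 with both drugs. Its highest values were in nintedanib 4 and combination 1, the 2 libraries richest in muscle transcripts. Carbonic anhydrase 3, Car3, abundant in fat and in slow muscle, gave 761, 714, 24.1 and 1.36 with vehicle, 81.2, 77.5, 51.6 and 1525 with nintedanib, 254, 998, 6.93 and 1343 with alpelisib and 728, 217, 29.8 and 11.2 with both drugs, again highest in nintedanib 4. The glycerol phosphate dehydrogenase Gpd1 reached 649 in vehicle 1, 426 in nintedanib 4, 403 in alpelisib 4 and 285 in combination 1. Acacb, the acetyl-CoA carboxylase that restrains fatty acid oxidation, was highest in nintedanib 4 (136), and the phosphatidate phosphatase Lpin1 was highest in combination 1 (208). Acsl1, which activates fatty acids, ran from 78.5 to 519, and the glycerol channel Aqp7 from 0 to 44.6.

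Triglyceride synthesis was covered by 6 members. Dgat2, which adds the last fatty acid, stood at 569.9, 28.6, 44.7 and 35.5 with vehicle, 53.2, 48.9, 41.0 and 34.3 with nintedanib, 109, 225, 36.4 and 334 with alpelisib and 43.6, 129.9, 50.5 and 7.10 with both drugs. Its relative Dgat1 in the same step ranged less, from 63.9 to 285. Pck1, which supplies glycerol phosphate in fat, gave 169.7, 1.24, 4.83 and 1.36 with vehicle, 0.933, 6.46, 0 and 2.21 with nintedanib, 19.8, 69.7, 4.33 and 142 with alpelisib and 16.3, 45.7, 0 and 0 with both drugs. Both Dgat genes and Pck1 had the same 4 highest libraries as Adipoq. Agpat2, the acyltransferase whose loss causes lipodystrophy, had 7 reads in all 16 mouse libraries together, 3 in alpelisib 3 and 4 in combination 3. Its human namesake ran from 1119 to 2272 in the human table of the same libraries. The reason for the low mouse value was not tested.

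**Figure D2:**
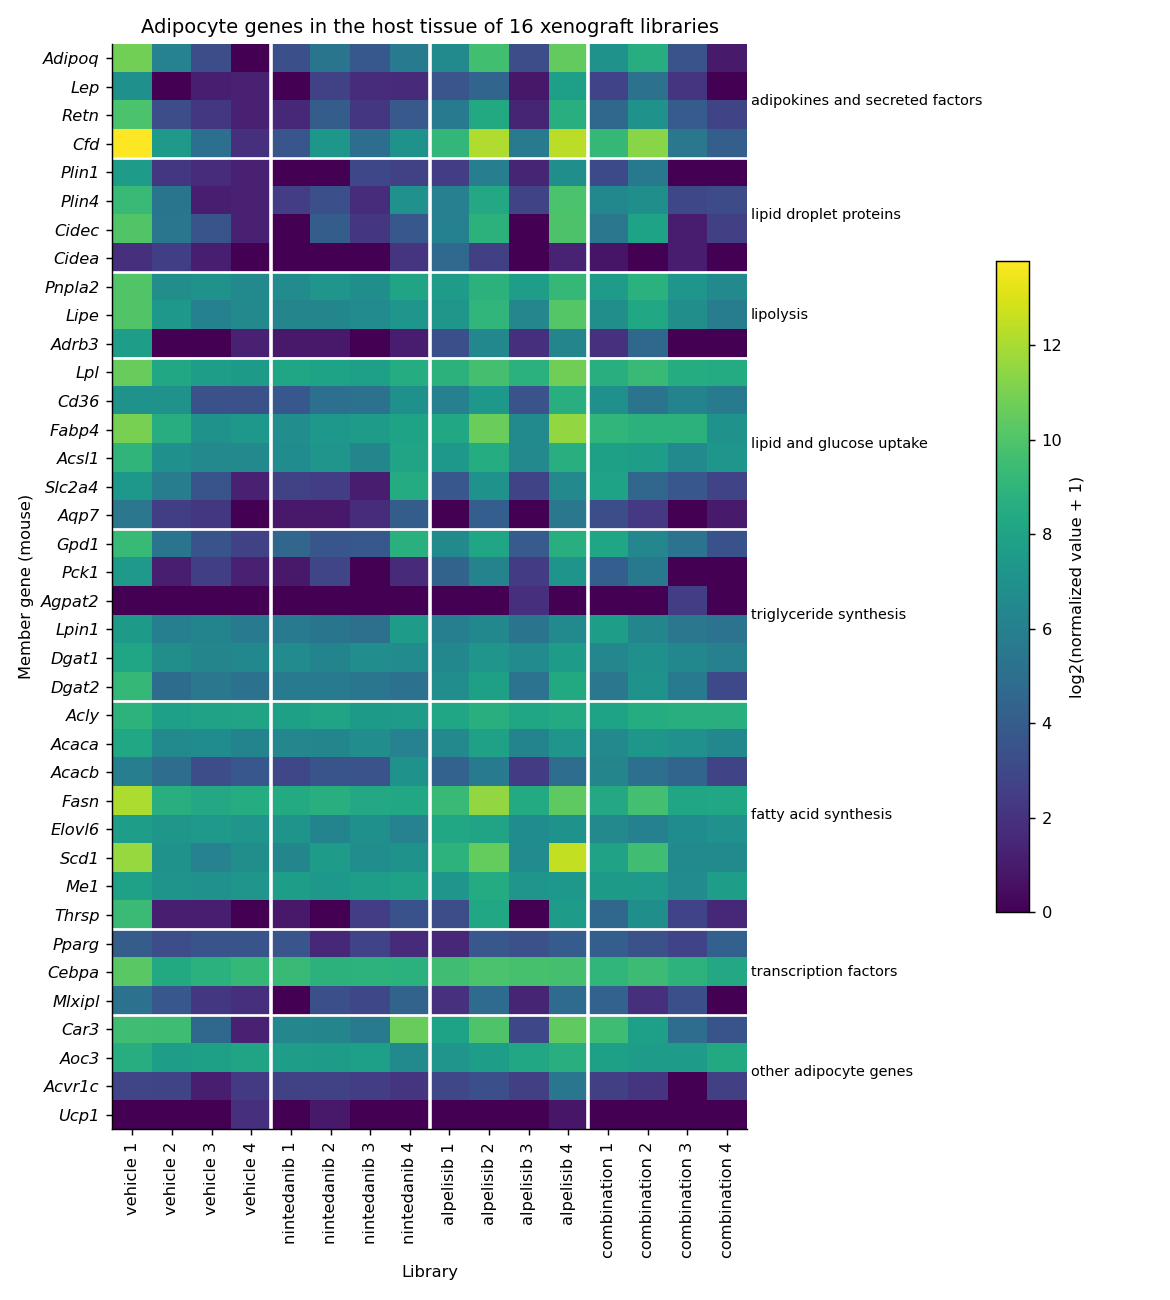
Values of all 38 members (rows, grouped by role) in the 16 libraries (columns, grouped by treatment), coloured by log2 of the normalized value plus 1. Columns vehicle 1, alpelisib 2, alpelisib 4 and combination 2 are bright across adipokines, droplet proteins and lipolysis genes, while rows such as Acly, Cebpa and Aoc3 are even and Agpat2 and Ucp1 are dark.

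Fatty acid synthesis split into genes that were high in the libraries of highest Adipoq and genes that were even. Fatty acid synthase, Fasn, stood at 4331, 418, 314 and 367 with vehicle, 341, 421, 321 and 294 with nintedanib, 612, 2938, 346 and 1318 with alpelisib and 313, 803, 283 and 305 with both drugs. The stearoyl-CoA desaturase Scd1 stood at 3231, 132, 67.6 and 113 with vehicle, 80.2, 192, 108 and 133 with nintedanib, 479, 1478, 97.9 and 5861 with alpelisib and 244, 757, 95.2 and 93.3 with both drugs. Thrsp, a lipogenic protein also called Spot14, gave 660.2, 1.24, 1.21 and 0 with vehicle, 0.933, 0, 4.69 and 9.95 with nintedanib, 8.50, 309.9, 0 and 186 with alpelisib and 24.4, 117, 5.73 and 2.03 with both drugs. In vehicle 2, vehicle 3 and vehicle 4 Fasn lay between 314 and 418, against 4331 in vehicle 1. ATP citrate lyase, Acly, which makes cytosolic acetyl-CoA, ran only from 183 to 472, at 472, 218, 245 and 262 with vehicle, 224, 264, 183 and 191 with nintedanib, 280.5, 396, 283 and 340.0 with alpelisib and 251, 368, 399 and 421 with both drugs. Malic enzyme, Me1, ran from 97.5 to 355, the elongase Elovl6 from 65.3 to 301 and the carboxylase Acaca from 67.5 to 301. Acaca had the same 4 highest libraries as Adipoq, while Acly, Me1 and Elovl6 shared 2 of those 4.

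Among the transcription factors Cebpa was the most even. Cebpa, the C/EBP alpha gene, which is also expressed in myeloid cells, gave 1209, 328, 445 and 569 with vehicle, 646, 467, 488 and 452 with nintedanib, 756, 935, 862 and 831 with alpelisib and 531, 709.8, 471 and 313 with both drugs. Pparg stayed between 1.85 and 18.2, at 15.7, 8.71, 10.9 and 10.9 with vehicle, 11.2, 1.85, 5.86 and 2.21 with nintedanib, 1.89, 12.5, 9.53 and 14.9 with alpelisib and 17.0, 9.79, 5.73 and 18.2 with both drugs. It was thus low in every library, those rich in Adipoq included. The glucose-sensing factor Mlxipl, or ChREBP, ran from 0 to 35.0. The amine oxidase Aoc3, also found in smooth muscle, ran from 92.9 to 399 and was lowest in nintedanib 4. The activin receptor Acvr1c, or ALK7, stood at 41.5 in alpelisib 4 and at no more than 9.36 elsewhere. Ucp1, the uncoupling protein that defines brown fat, had 4 reads in 16 libraries, 2 in vehicle 4 and 1 each in nintedanib 2 and alpelisib 4, with values of 0, 0, 0 and 2.73 with vehicle, 0, 0.923, 0 and 0 with nintedanib, 0, 0, 0 and 0.783 with alpelisib and 0, 0, 0 and 0 with both drugs.

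Counted over the list, 17 of the 38 genes, Adipoq included, had the same 4 highest libraries as Adipoq and 9 shared 3 of them. Neither these counts nor those of the highest library are set against all mouse genes here, so they describe the list only. Vehicle 1 was the highest library for 18 genes and alpelisib 4 for 10. Within the vehicle group, vehicle 1 was highest for 35 of 38, a count that includes Agpat2, which had no read in any vehicle library. The SD within groups had a median of 1.52 on the log2 scale over the 36 genes tested, against 0.57 over all 17484 mouse genes tested. The share of the sum of squares that lay between the 4 groups had a median of 17.9% over the 36 and 18.3% over all genes tested. Such a share is above 0 even where groups differ only by the spread between libraries, so it does not measure an effect of treatment.

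**Figure D3:**
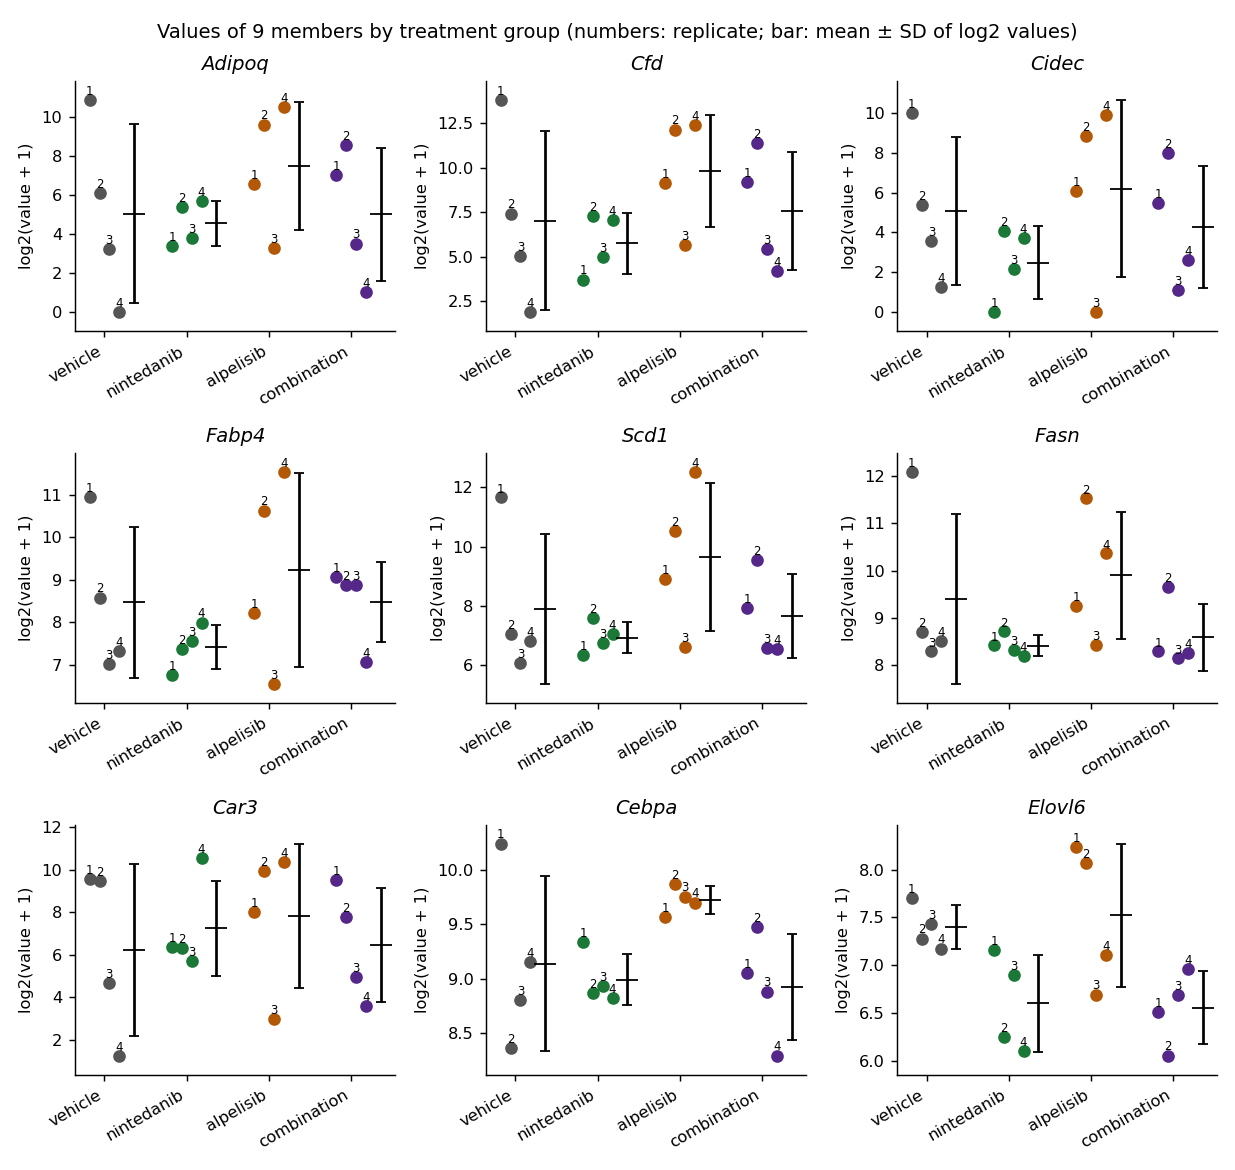
Values of 9 members, as log2 of the normalized value plus 1 (vertical axis), for each library (points, numbered by replicate) in the 4 treatment groups, with the mean and SD of the log2 values beside each group (n = 4). Vehicle 1 stands well above the other vehicle libraries for Adipoq, Cfd, Cidec, Fabp4, Scd1 and Fasn, while vehicle 2 stands level with it for Car3, and Elovl6 in the combination group lies below every vehicle library.

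Each member was also divided by Adipoq in the same library, using recovered reads, to compare members with each other inside the 5 libraries with at least 100 Adipoq reads, namely vehicle 1, alpelisib 2, alpelisib 4, combination 1 and combination 2. In that order, the ratio of Scd1 to Adipoq was 1.73, 1.90, 4.07, 1.92 and 1.997. The ratio of Fasn to Adipoq was 2.32, 3.78, 0.915, 2.46 and 2.12. In alpelisib 4, therefore, the desaturase ratio was the highest and the synthase ratio the lowest of the 5. Ratios of Thrsp to Adipoq were 0.354, 0.398, 0.129, 0.192 and 0.308, also lowest in alpelisib 4. The Lep ratio was 0.0643, 0.0281, 0.153, 0.0465 and 0.0895, highest in alpelisib 4. Alpelisib 2 and alpelisib 4, which had the same treatment, thus lay at opposite ends for Fasn, Thrsp and Lep.

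Ratios of Pck1 to Adipoq (0.0910, 0.0896, 0.0984, 0.128 and 0.120), Dgat2 (0.306, 0.289, 0.232, 0.343 and 0.343) and Lipe (0.555, 0.684, 0.792, 0.884 and 0.814) varied least among the members, with the highest ratio at most 1.59 times the lowest. For Slc2a4 the ratio was 2.02 in combination 1, a library rich in muscle transcripts, and 0.0585 to 0.166 in the other 4. These ratios rest on 1 library each, and no test was made of them.

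The study asked how the drugs act together in these tumours, with tumour and host transcripts kept apart. In the comparison of nintedanib with vehicle most fat transcripts stood lower on average, but none passed the test. With limma, 0 of the 36 genes tested had an adjusted p under 0.05, and the share of all mouse genes called in this comparison was 0%. The median log2 difference was -0.63, with 32 of the 36 below 0, against a median of 0.02 over all genes tested. All 4 adipokines, all 4 droplet proteins, all 3 lipolysis genes and all 3 transcription factors were below 0. The largest was Cidec at -2.57 (SE 1.91, adjusted p = 0.896 by limma), and the others included Fabp4 at -1.05 (SE 0.86), Fasn at -0.98 (SE 0.66), Scd1 at -0.97 (SE 1.07) and Adipoq at -0.49 (SE 1.86). Car3 was the farthest above 0, with nintedanib 4 at 1525. In the same comparison 1 of 10 endothelial markers was above 0, with a median of -0.59, and 14 of 14 skeletal muscle genes were, with a median of 1.53. Their part in the members' differences was not tested.

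This direction turned without 1 vehicle library. Without vehicle 1 the median turned to 0.28, Adipoq to 1.45 and Scd1 to 0.28. Without vehicle 4 the median was -1.09 and without nintedanib 4, the library rich in muscle, -0.96. By edgeR and DESeq2 it was -1.15 in each. At an unadjusted p under 0.05, 1 of 36 members passed, against 6.01% of all genes tested. That gene was Elovl6, which lengthens palmitate and is named here after its values were seen. It stood at 207, 154, 171 and 143 with vehicle, 142, 74.7, 118 and 67.5 with nintedanib, 301, 267, 102 and 136 with alpelisib and 90.2, 65.3, 102 and 124 with both drugs. Every nintedanib library lay below every vehicle library, by a small margin at 142 against 143, and Elovl6 was the 1 member whose groups did not overlap, against 3.69% of all genes tested. The difference was -0.80 (SE 0.32, adjusted p = 0.735 by limma). Aoc3, at -0.63 (SE 0.31, adjusted p = 0.84 by limma), came next by p.

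With alpelisib most fat transcripts stood higher than with vehicle by the mean of log2(value + 1), and again none passed. By limma 0 of 36 were called, and 0% of all mouse genes. The median log2 difference was 0.77 and 30 of the 36 were above 0, against a median of 0.01 over all genes tested. Cfd stood at 2.78 (SE 1.94, adjusted p = 1 by limma), Plin4 at 2.48 (SE 1.64), Adipoq at 2.43 (SE 1.86) and Scd1 at 1.73 (SE 1.07). By the plain mean of the values, however, Cfd was lower with alpelisib, at 2581 against 3571 with vehicle. Plin4 (332 against 174), Adipoq (580 against 485) and Scd1 (1979 against 886) were higher by that mean too. Lpl, the member of smallest p, stood at 1.05 (SE 0.50, adjusted p = 1 by limma), and Cebpa at 0.58 (SE 0.30). The adipokines, at a median of 2.16, stood above fatty acid synthesis, at 0.23, and the transcription factors at 0.00. Of the 12 genes of skin epithelium and hair 11 were above 0 as well, with a median of 1.45, while 1 of 14 muscle genes was, with a median of -0.61. The skin and hair genes summed to 13173 in alpelisib 1 and to no more than 2805 in the other alpelisib libraries. The part of these tissues in this comparison was not tested.

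The size of this difference depended on the model and on single libraries. With edgeR and DESeq2 on recovered reads the Cfd difference turned to -0.47 in each and the median over members to 0.18 and 0.20. Leaving out vehicle 1 gave a median of 1.57 and leaving out alpelisib 3 gave 1.42. The median was 0.35 without vehicle 4, 0.37 without alpelisib 4 and 0.50 without alpelisib 2. At an unadjusted p under 0.05, 0 of 36 members passed, against 3.26% of all genes. The groups overlapped for each of the 36, against 2.1% of all genes tested that did not overlap.

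**Figure D4:**
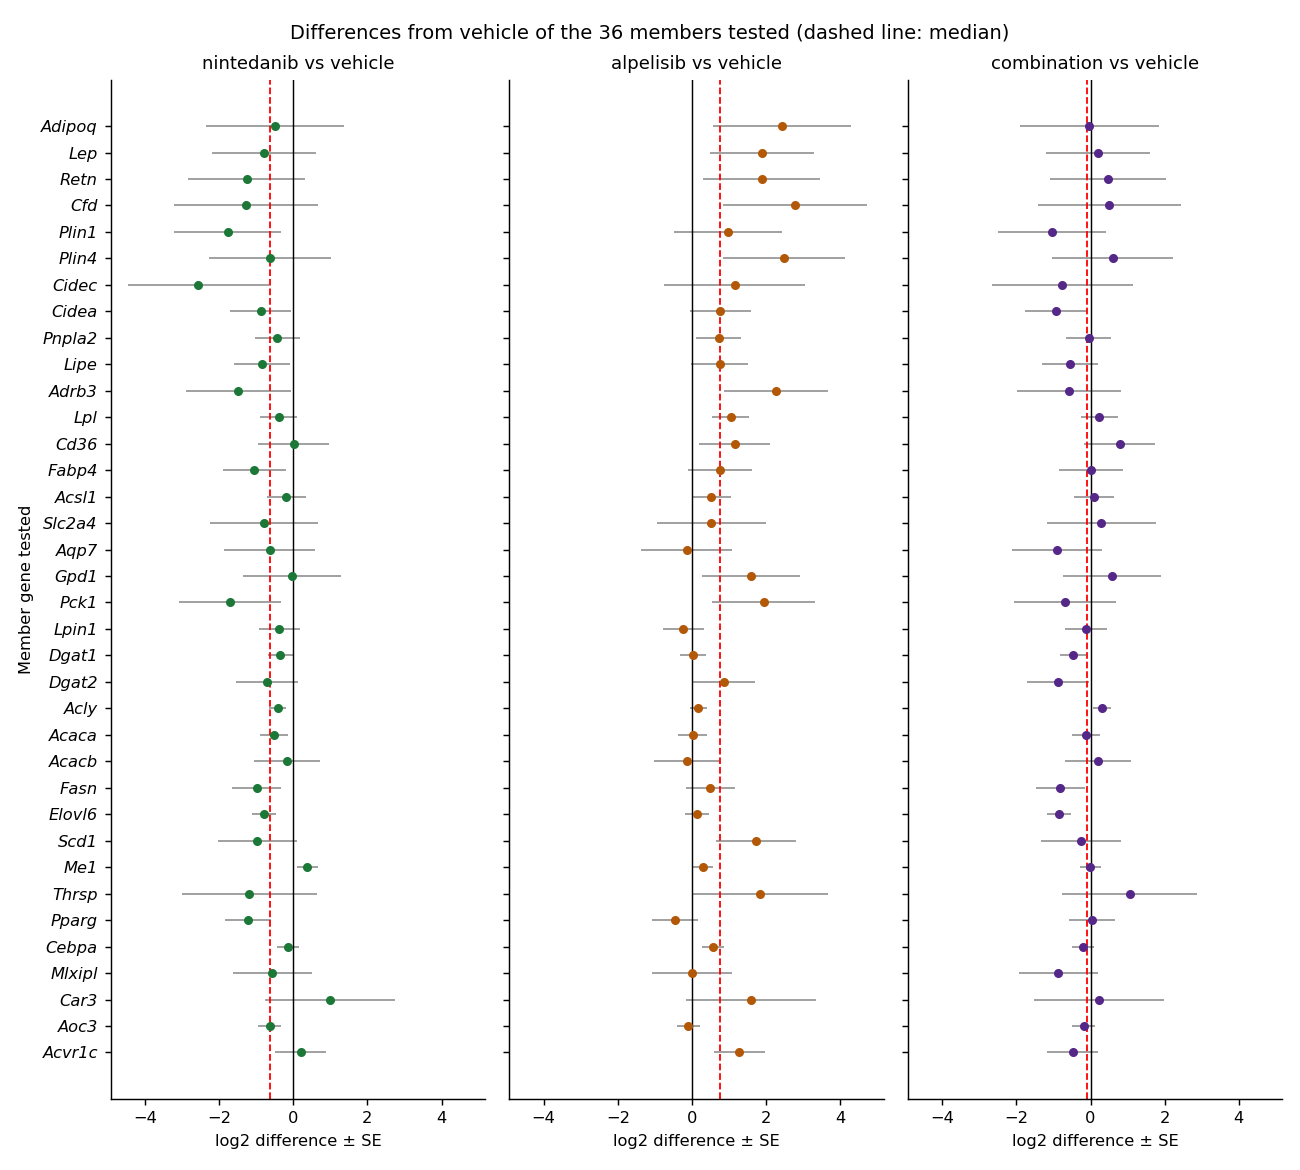
Log2 difference from vehicle with its SE (horizontal axis, limma) for each of the 36 members tested (rows, by role), for nintedanib, alpelisib and the combination, with the median over members as a dashed line at -0.63, 0.77 and -0.09. Most points lie left of 0 for nintedanib and right of 0 for alpelisib, with wide errors for adipokines and droplet proteins and narrow ones for Acly, Elovl6 and Cebpa.

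With both drugs together the members were divided in direction on the log2 scale. With limma, 0 of 36 members were called, where 0.0515% of all mouse genes were. The median log2 difference was -0.09, with 15 above 0 and 21 below, against 0.03 over all genes tested. Of other tissues, 0 of 10 endothelial markers were above 0 (median -0.63) and 14 of 14 muscle genes were (median 0.93). Adipoq stood at -0.03 (SE 1.86), Scd1 at -0.25 (SE 1.07) and Fasn at -0.82 (SE 0.66). The plain means of their values lay further apart, at 129 against 485 with vehicle for Adipoq, 297 against 886 for Scd1 and 426 against 1358 for Fasn. Acly was higher by that mean, at 360 against 299. Without vehicle 1 the median was 0.69 and Adipoq stood at 1.91. Without combination 3 or combination 4 the median was 0.13 and 0.12, and without any other vehicle or combination library it lay between -0.28 and -0.48. By edgeR it was -0.78, and with values scaled to human and mouse reads together 0.23.

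Elovl6 was the exception by rank. It lay below every vehicle library in all 4 combination libraries, at 124 or less against 143 or more, with a difference of -0.84 (SE 0.32, adjusted p = 0.525 by limma). It was 1 of 36 members with an unadjusted p under 0.05, against 7.67% of all genes tested, and the 1 whose groups did not overlap, against 3.85%. Both shares in the list were below those of all genes.

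Set against alpelisib alone, the combination stood lower on average for most fat transcripts, though none was called. With limma 0 of 36 passed, and 0% of all mouse genes. The median log2 difference was -0.92 with 32 of 36 below 0. Beside it, 0 of 10 endothelial markers were above 0 (median -0.74) and 1 of 12 skin and hair genes (median -0.88), against 14 of 14 muscle genes (median 1.65), and their part was not tested. The skin and hair sum was 13173 in alpelisib 1 and at most 2805 in the other alpelisib libraries. At an unadjusted p under 0.05, 3 of 36 members passed, against 5.76% of all genes. They were Elovl6 at -0.97 (SE 0.32, adjusted p = 0.668 by limma), Cebpa at -0.80 (SE 0.30, adjusted p = 0.736 by limma) and Acvr1c at -1.76 (SE 0.69, adjusted p = 0.76 by limma). Cebpa ran from 756 to 935 with alpelisib and from 313 to 709.8 with both drugs, without overlap. Acvr1c did not overlap either, at 5.20 to 41.5 against 0 to 5.18, values close to detection, and these 2 of 36 compare with 2.86% of all genes. The median was -1.72 without alpelisib 3, -0.50 without alpelisib 4 and -0.57 without combination 4. By edgeR it was -1.47.

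Against nintedanib alone, the combination had a median log2 difference of 0.46 with 26 of 36 members above 0. With limma 0 members and 0% of all genes were called. Acly, the source of acetyl-CoA for fatty acid synthesis, was the 1 member with an unadjusted p under 0.05, against 5.14% of all genes. Of the 14 muscle genes 1 was above 0 (median -0.66). Acly stood at 0.73 (SE 0.23, adjusted p = 0.939 by limma), and combination 1, at 251, lay below nintedanib 2, at 264. No member had groups without overlap, against 2.48% of all genes. The median was 0.12 without combination 2, 0.29 without nintedanib 1 or nintedanib 3, 0.77 without nintedanib 4 and 0.71 without combination 4. These comparisons share groups, so their directions are not independent of each other.

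The interaction, which asks whether the combination departs from the sum of the single drug differences, gave 0 of 36 called by limma and 0% of all genes. Its median was -0.33, with 26 of 36 below 0 and 0 with an unadjusted p under 0.05, against 3.12% of all genes. For skin and hair 1 of 12 genes was above 0, with a median of -1.12, and their sum was 13173 in alpelisib 1 and no more than 4421 elsewhere. The median over the members ran from -1.10 without vehicle 1 to 0.05 without alpelisib 4, and by edgeR it was 0.20. With edgeR and DESeq2 on recovered reads, too, 0 members were called in each of the 6 comparisons. The smallest adjusted p of any member in any alternative was 0.212.

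**Figure D5:**
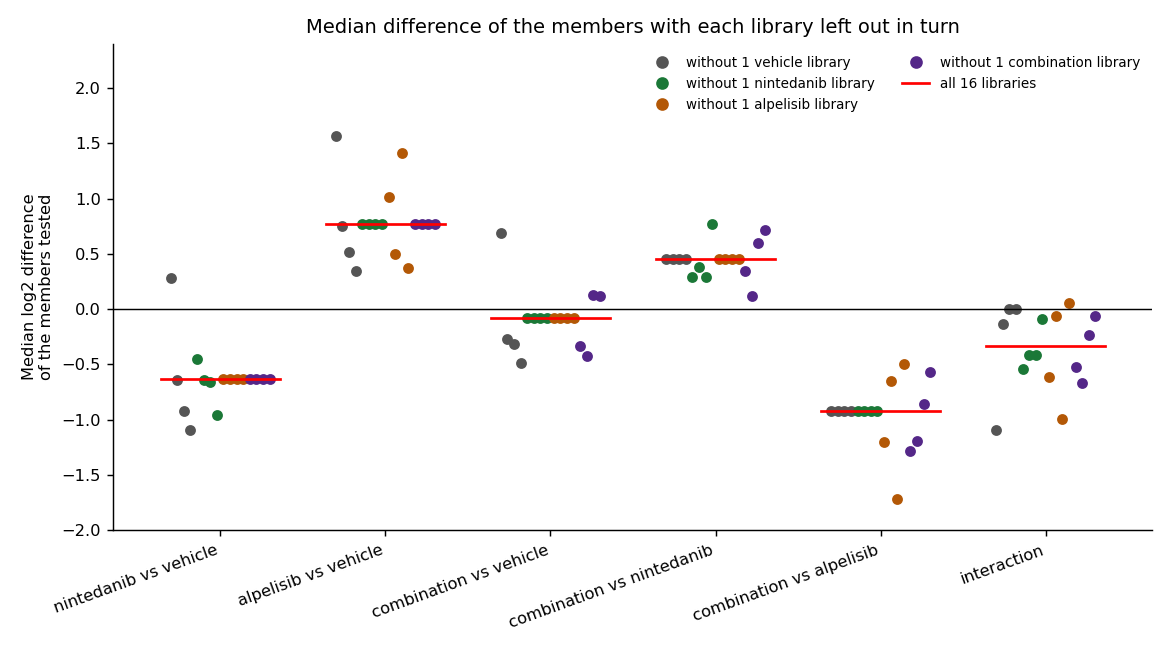
Median log2 difference over the members tested (vertical axis) in each of the 6 comparisons with all 16 libraries (red line) and with each library left out in turn (points, coloured by the group of the library left out). Leaving out vehicle 1 moves nintedanib against vehicle from -0.63 to 0.28, alpelisib against vehicle from 0.77 to 1.57 and the combination against vehicle from -0.09 to 0.69.

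Other genes of fat and lipid handling varied less in their summed share, though not each by itself. Of 37 listed, 34 were in the mouse table, and together they took 0.116% to 0.217% of mouse reads. Mgll, the gene of highest mean, ran from 835 to 2345, while Mrap ran from 0 to 143 and Slc7a10 from 0 to 98.7. The same 4 highest libraries as Adipoq were found for 5 of the 34, and 3 of those 4 for another 13, again without a count over all mouse genes. By limma 0 of the 34 were called in any comparison, with medians of -0.14 for nintedanib, 0.33 for alpelisib and -0.07 for the combination against vehicle. Adipogenin, Adig, had 138 in vehicle 1, 73.6 in alpelisib 4, 67.6 in alpelisib 2, 29.4 in combination 2 and no more than 13.2 elsewhere. The fasting-induced lipase inhibitor Angptl4 had the smallest adjusted p against vehicle, 0.516 with nintedanib and 0.389 with both drugs by limma. It stood at 75.9 to 184 with vehicle, 199 to 428 with nintedanib, 108 to 371 with alpelisib and 136 to 364 with both. The nintedanib libraries lay above all vehicle libraries, as did alpelisib 2, alpelisib 3 and alpelisib 4. Combination 4, at 136, and alpelisib 1, at 108, did not. Of all genes tested, 3.69% did not overlap between nintedanib and vehicle in either direction. Angptl4 is named here after its values were seen.

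Outside the list, the genes most like Adipoq over the 16 libraries, by Pearson correlation of log2 values among 12108 genes with a mean of at least 10, were Glb1l2 (0.91), Mrap (0.91), Apoc1 (0.91), Ces1d (0.89), 1100001G20Rik (0.89), Pnpla3 (0.88), Adig (0.87), Cdo1 (0.87), Sort1 (0.86) and Dbi (0.86). Mrap encodes the melanocortin receptor accessory protein, Ces1d a carboxylesterase of fat and liver, and Dbi the acyl-CoA binding protein. These are measures of likeness over libraries in which other host transcripts vary too, with no test. Cfd (0.98), Retn (0.92), Plin4 (0.92) and Cidec (0.91) were the members most like it, and Aoc3 (0.10) and Elovl6 (0.19) the least among members with that mean.

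The human table of the same libraries was read for genes of the same names. All 38 had a human namesake there, taking CA3 for Car3 and SCD for Scd1. Of these, 13 stayed under 10 in every library, among them ADIPOQ (at most 1.05), RETN and THRSP (0 reads) and LIPE (at most 7.96). In contrast 12 were at 100 or more in every library, among them FASN (1158 to 2479), SCD (2162 to 3967), ACLY (460.04 to 1010.2) and CEBPA (382 to 777). Human FASN in vehicle 1 was the highest of the 16, as for mouse Fasn, while human SCD was highest in vehicle 3. FABP4 was present in the human table as well, at 362 to 2771, highest in vehicle 2.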

How the data were processed

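Signal in the deposited tables, 1 for mouse and 1 for human, is the authors' normalized value of each gene in each library. Per the labels, the authors made 3′ end (QuantSeq) libraries, and per the series' design text each was mapped to both species' genomes in separate runs. The submitters' processing notes name TopHat, hg19 and mm10, without their roles. Not given in the sources used here: the counting tool, annotation and scaling. All values (100%) of each table were whole multiples of 1 step per library, within 0.01 read, so reads were recovered. No column was left without a sample.

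Log2(value + 1) was fitted with limma 3.58.1 (1 mean per group, 16 libraries, trend) in R 4.3.3, for genes reaching 1 in 4 or more libraries. Benjamini-Hochberg adjustment ran over all 17484 genes tested, with a threshold of 0.05. In simulated data, built for the combination against vehicle over 17021 genes, 26 of 100 genes shifted by log2 1 were recovered. Of those shifted by log2 2, 92 of 100 were. Shifted genes were drawn only from those with a mean value at or above the median. Of the calls 6.35% were unmoved genes, and a comparison with nothing moved gave 1 call. Members varied more within groups (median SD 1.52 on the log2 scale, against 0.57 over all genes tested), so these rates need not hold for them. Alternatives were edgeR 4.0.16, DESeq2 1.42.0, other scalings, filters and pseudocounts, a replicate block and left-out libraries. The design allowed for counts, and its branch for normalized values was used.

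The members, lists, tests and alternatives were chosen with earlier results of these data known. Named genes were 24 members given in every library, members with a small p, and the 10 genes most like Adipoq. The gene of highest mean in each marker list was named too, and some genes after their values were seen, as stated with them. Besides the other adipocyte genes, 9 marker lists were used (brown and beige fat, preadipocyte, sebaceous gland, skin and hair, skeletal muscle, mammary gland, endothelium, macrophage, fibroblast). By limma, 0 of their genes were called in any of the 6 comparisons. No coordinates or sequences are given, since no mouse reference was used.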

Additional observations from a re-analysis of the deposited data

Results flagged for a closer look

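For each of the 36 members tested and each group of 4 libraries, 144 in all, the highest and the lowest library were compared with the rest on the log2 scale. A library was marked where its gap to the nearest other exceeded Dixon's 95% criterion for its share of the range. For independent, normally distributed values chance gives this in about 1 in 20 groups. This marked 16 values, 6 of them in vehicle 1 and 5 in nintedanib 4. Members vary together over the same 16 libraries, so the count of marks cannot be set against that rate. Where all other values of a group are 0, as for Cidea with nintedanib, a mark is certain.

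Vehicle 1 stood above the other vehicle libraries for Plin1 (187 against at most 3.73), Pnpla2 (1058 against at most 128), Adrb3 (200.1 against at most 1.36), Dgat2 (569.9 against at most 44.7), Fasn (4331 against at most 418) and Thrsp (660.2 against at most 1.24). In nintedanib 4, Gpd1 (426 against at most 22.4), Acacb (136 against at most 11.1), Car3 (1525 against at most 81.2) and Cidea (3.32 against 0) were high and Aoc3 was low (92.9 against at least 196). Fasn was high in combination 2 (803 against at most 313) and Me1 in alpelisib 2 (355 against at most 164). Low values were Fabp4 in combination 4 (133 against at least 470.2), Dgat1 in nintedanib 2 (72.9 against at least 101) and Adrb3 in nintedanib 3 (0 against at least 0.923). Of these, the Cidea value of nintedanib 4 and the Adrb3 value of nintedanib 3 lie within 3 reads of 0.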

How the results depend on the processing

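In each of the 6 comparisons 0 members were called under every alternative run. With each library left out in turn, the median ran from -1.09 to 0.28 for nintedanib against vehicle, 0.35 to 1.57 for alpelisib against vehicle, -0.48 to 0.69 for the combination against vehicle, 0.12 to 0.77 for the combination against nintedanib, -1.72 to -0.50 for the combination against alpelisib and -1.10 to 0.05 for the interaction. By edgeR on recovered reads the medians against vehicle were -1.15, 0.18 and -0.78 and that of the interaction turned to 0.20. When values were scaled to human plus mouse reads together, the median for the combination against vehicle turned to 0.23. Of single genes, the sign of the difference turned for Adipoq with nintedanib at a pseudocount of 0.1 (0.31) and without vehicle 1 (1.45), for Scd1 with nintedanib without vehicle 1 (0.28) and for Cfd with alpelisib by edgeR and DESeq2 (-0.47 in each). With the combination it turned for Adipoq on that scale (0.25), at a pseudocount of 0.1 (0.60) and without vehicle 1 (1.91), vehicle 2 (0.32), combination 3 (0.48) or combination 4 (1.31), for Scd1 on that scale (0.074) and without vehicle 1 (0.999), combination 3 (0.11) or combination 4 (0.12), and for Fasn without vehicle 1 (0.077). The lowest values with a library left out were -2.17 for Adipoq and -1.58 for Scd1 with nintedanib, and -1.71 for Adipoq, -0.88 for Scd1 and -1.18 for Fasn with the combination. The cause was not tested. A replicate block cannot move the differences in this balanced design, so its medians (-0.63, 0.77 and -0.09 against vehicle) carry no information. With the block 0 members were called, and over all mouse genes 3 were called for the combination against vehicle, against 9 without it. Same-numbered libraries of different groups did not deviate together, with correlations of -0.29 to 0.17 over 24 pairs. Differently numbered ones gave -0.27 to 0.45 over 72 pairs. Of the 16 libraries, 1 correlated best with its own number. This check cannot show whether the numbers pair the samples, since a pairing need not show in deviations over all genes. A fit with only the groups compared could not be made for the interaction, which uses all 4. Depth limits members of few reads, such as Cidea, Lep, Aqp7 and Acvr1c.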

Other observations

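Some genes of other tissues were high in 1 or 2 libraries. These genes were chosen after their values were seen, and no test was made. Cox8b, a cytochrome oxidase subunit of muscle and brown fat, stood at 799.6 in nintedanib 4 and 788 in combination 1, the libraries richest in muscle transcripts, and at no more than 105 elsewhere. In alpelisib 1, the library with most Cidea, the lipid genes Elovl3 (62.3), Awat1 (78.4) and Scd3 (72.7) were at their highest, as was the hair follicle keratin Krt25 (1684). Awat1 and Scd3 are known from sebaceous glands, but other genes of that list did not peak in alpelisib 1. There Mc5r, Dgat2l6 and Far2 had no read, Awat2 stood at 1.89 and Soat1 at 550, against 773 for Soat1 in combination 4. The list summed to 703 in alpelisib 1 and was highest in combination 4, at 787. Casein transcripts of the mammary gland were seen in alpelisib 2, at 74.9 for Csn1s1 and 13.5 for Csn2. Csn1s1 was at 0 in 13 libraries and at 6.45 in vehicle 1, the library with most Adipoq. Alpelisib 4, next in Adipoq, was among those at 0.

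The 8 fibroblast genes, led by Col1a1, summed to 150997 to 360670 over the 16 libraries, the 8 preadipocyte genes, led by Ly6a, to 2331 to 7124, and the 7 sebaceous gland genes, led by Soat1, to 427 to 787. The 11 brown and beige fat genes, led by Cox8b, summed to 199 to 1544, highest in nintedanib 4 and next in combination 1.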
